A study of Mus musculus with 12 samples.

Results

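Cells that carried EGFR at their surface were sorted from mouse glioblastomas (GBMs) by whether they also carried galectin-1, and the GAL1+ cells were compared with the GAL1- cells of the same tumor. The comparison takes every library labelled as GAL1 positive or GAL1 negative, which is 6 of the 12 libraries in the series, with 3 GAL1+ and 3 GAL1- libraries from the tumors T3, T4 and T5. The other 6 libraries come from PDGFRA+ and PDGFRA- cells of these tumors and serve to test whether a difference has the same size in the PDGFRA sort. They are also part of the fit, where they add to the tumor terms and the variance behind each p. All animals carried a conditional human EGFR transgene, a Cdkn2a-/- genotype and a conditional luciferase reporter, on a mixed background (C57Bl/6J, 129S4, FVBN/J, Balb/cJ, SJL). Tumors were started in adult mice of both sexes by a lentivirus that carries Cre, injected into the striatum, so that the transgene is switched on only in cells the virus reaches, while Cdkn2a is missing from every cell of the host. The labels name no treatment for either group, and the tumors were taken at end stage. The study sorted PDGFRA+ and GAL1+ cells to see how signaling downstream of EGFR differs between them. Its account of the results describes the sorted cells as negative for CD45, the leukocyte surface protein, while its sorting protocol names antibodies to EGFR and to galectin-1 alone. The 3 replicates of a group are separate tumors. Recovered reads per library were 24117541, 21728280 and 22742465 in the GAL1- libraries of T3, T4 and T5, and 17486645, 13788453 and 14741665 in the GAL1+ libraries. Levels are log2 CPM, the logarithm of read counts scaled to library size, and differences are log2 fold changes of GAL1+ over GAL1- cells from limma with the tumor as a block. A gene is called when its Benjamini-Hochberg adjusted p over all 18180 genes is under 0.05.

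Galectin-1, the product of *Lgals1*, is a small lectin that binds galactose-containing glycans and is found in the cytoplasm, in the nucleus and outside the cell. In glioma it is linked to cell motility, to blood vessel growth and to the restraint of immune cells, and it is made by tumor cells as well as by endothelial cells and macrophages. GBM tissue also holds microglia, the resident phagocytes of the brain, and macrophages that enter from the blood.

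*Lgals1* itself stood at a log2 CPM of 6.05, 6.28 and 6.81 in the GAL1- libraries of T3, T4 and T5 and at 7.95, 7.64 and 7.41 in the GAL1+ libraries. All GAL1+ libraries lay above all GAL1- libraries, and the gap was widest in T3 and narrowest in T5. The fold change was 1.29 (standard error 0.22, adjusted p = 0.000967), which is 1.63 with T5 left out and 0.98 with T3 left out. The gate on the protein was thus matched at the level of its transcript, but many other genes differed by more. *Egfr*, the mouse gene of the receptor used in the gate, was at 10.65, 10.46 and 10.42 in GAL1- and at 9.02, 8.53 and 7.68 in GAL1+ cells. It was lower in the GAL1+ cells of each tumor, by −2.10 (standard error 0.32, adjusted p = 0.000461), and the groups did not overlap. Reads of the human transgene were not analysed here, and whether some of them align to the mouse gene was not tested. *Ptprc*, which encodes CD45, was at 3.70, 5.18 and 4.94 in GAL1- and at 8.21, 8.74 and 9.0 in GAL1+ cells. Its fold change of 4.04 (standard error 0.37, adjusted p = 4.77e-05) is for RNA in bulk libraries and does not measure the surface protein; the cause of the difference was not tested. *Pdgfra*, the receptor that marks progenitors of oligodendrocytes, was at 10.81, 10.34 and 10.49 in GAL1- and at 8.95, 6.74 and 7.05 in GAL1+ cells (fold change −2.97, standard error 0.41, adjusted p = 0.000258).

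Genes of the *Cdkn2a* locus and sex-linked genes were also read from the libraries. *Cdkn2a*, the locus of the cell cycle inhibitors p16 and p19, had levels of 4.27, 3.87 and 4.18 in GAL1- and of 2.80, 2.71 and 2.32 in GAL1+ cells, so that reads were present in every library (fold change −1.49, standard error 0.24, adjusted p = 0.000648). Which part of the gene its null allele lacks was not examined, so these reads check nothing about the genotype. *Cdkn2b*, the neighbouring inhibitor gene, had a fold change of −0.38 that was not called (adjusted p = 0.169). Sex-linked genes were used to check that the libraries of a tumor belong together. *Xist*, the RNA of the inactive X chromosome, had 50423 reads in the GAL1- and 31688 in the GAL1+ library of T5, against 3 and 7 reads in T3 and 6 and 3 in T4. *Ddx3y*, on the Y chromosome, had 1480 and 1663 reads in T3, 1455 and 1685 in T4 and 0 in both libraries of T5. Both libraries of each tumor therefore fall on the same side, T3 and T4 as male and T5 as female tissue. The check sets T5 apart only, since an exchange of libraries between T3 and T4 would give the same result.

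Across the genome, 10578 of the 18180 genes (58.2%) passed this test; 5254 (28.9%) had more RNA in the GAL1+ cells and 5324 (29.3%) had less. With the 6 GAL1 libraries alone in the fit, 9952 genes were called. Of the called genes, 10530 moved in the same direction in all 3 tumors. In 11021 genes (60.6%) the 3 GAL1+ and the 3 GAL1- libraries did not overlap. The counts were nearly even in both directions, but the sizes were not. Among the called genes, 549 were higher by more than 16 fold and 212 by more than 32 fold, while 3 were lower by more than 16 fold and 0 by more than 32 fold. Fold changes ran from −4.35 to 7.99 with a median of −0.03 over all genes. In each list below, the number of members called and the median fold change are to be read against these shares and this median.

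**Figure D1:**
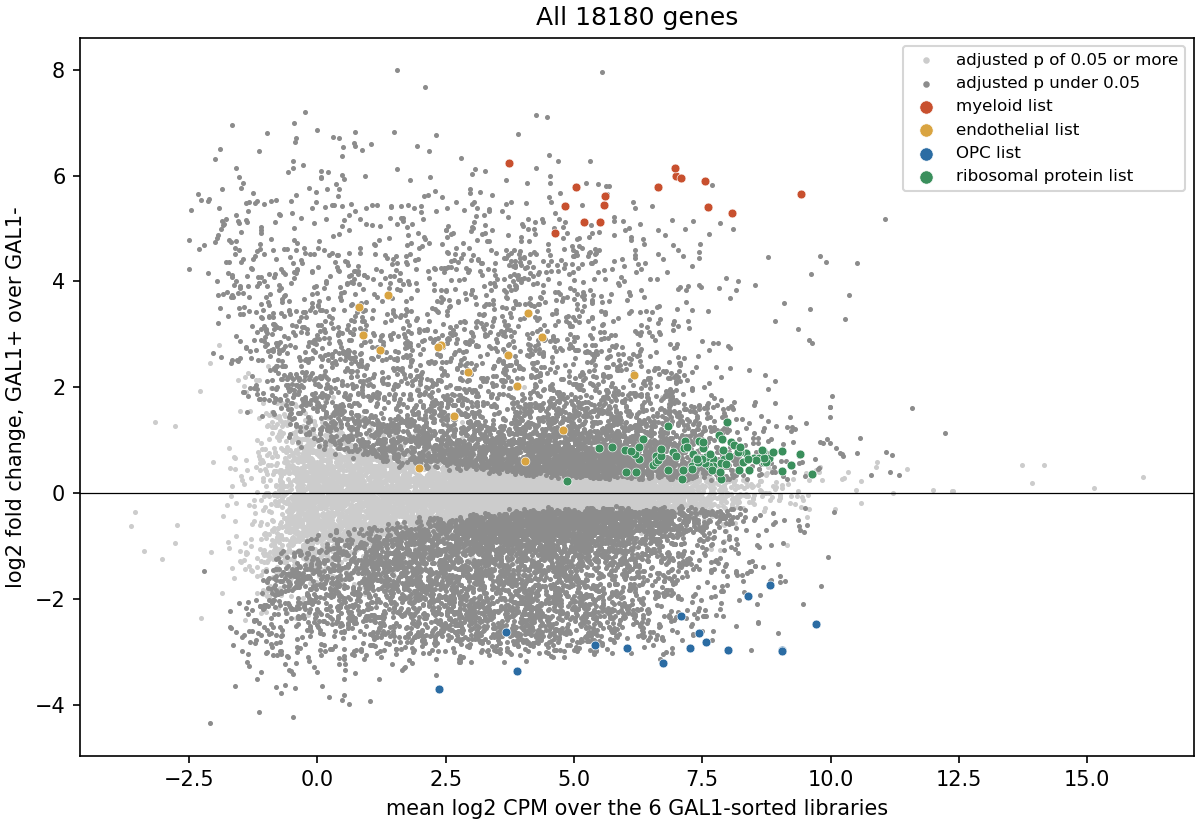
Each point is a gene, placed by its mean log2 CPM over the 6 libraries (horizontal axis) and its log2 fold change of GAL1+ over GAL1- cells (vertical axis), with called genes in darker grey and the members of 4 gene lists in color. Large positive differences reach 7.99 and large negative ones −4.35. The myeloid genes lie near the top and the genes of oligodendrocyte progenitors near the bottom.

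Leukocyte genes rose together. All 15 pan-leukocyte genes were called higher in GAL1+ cells, with a median fold change of 4.41 and a range from 3.80 to 5.19. Their summed share of reads was 0.0121%, 0.0306% and 0.0247% in the GAL1- libraries of T3, T4 and T5, and 0.35%, 0.397% and 0.408% in the GAL1+ libraries. Every member had more than 3 reads in each of the 6 libraries; 3 reads are taken here as the floor of detection, which covers counting error only. The GAL1- library of T3 held the smallest share, and T3 had the largest median difference (5.16, against 4.00 in T4 and 4.31 in T5). *Laptm5*, a lysosomal membrane protein of blood cells, had the most reads of the list, at a level of 3.56, 5.40 and 5.03 in GAL1- and of 9.24, 9.75 and 9.99 in GAL1+ cells (fold change 4.99, adjusted p = 4.31e-05). *Arhgdib*, a signaling regulator of blood cells, had the largest fold change at 5.19, and *Coro1a*, an actin-binding protein of leukocytes, the smallest at 3.80. In bulk libraries, more cells of a type and more RNA per cell cannot be told apart.

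Genes of mononuclear phagocytes rose further still. All 16 genes of the myeloid list were called higher, with a median of 5.64 (6.19 in T3, 4.91 in T4 and 5.66 in T5). Together they took 0.0166%, 0.0576% and 0.0406% of reads in GAL1- and 1.16%, 1.42% and 1.62% in GAL1+ cells. *Csf1r*, the receptor that macrophages and microglia need to survive, was at 3.79, 5.96 and 4.98 in GAL1- and at 9.94, 10.57 and 10.41 in GAL1+ cells. The lowest GAL1+ library lay well above the highest GAL1- library, and the fold change was 5.40 (standard error 0.51, adjusted p = 4.85e-05). *Ctss*, the lysosomal protease that trims the invariant chain, had the most reads of the list and rose from 5.29, 7.55 and 6.94 to 11.48, 12.33 and 12.96 (fold change 5.66, standard error 0.52, adjusted p = 4.76e-05). *Spi1*, which encodes the myeloid transcription factor PU.1, showed the smallest difference of the list at 4.92 (standard error 0.50), and *Trem2*, a lipid-sensing receptor of microglia and macrophages, the largest at 6.23 (standard error 0.73). The levels of *Trem2* in the GAL1- libraries of T3, T4 and T5 were far apart, at −1.41, 2.56 and 0.68.

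The largest rises among called genes with a mean log2 CPM of at least 4 included several genes known from macrophages. *Mrc1*, the mannose receptor CD206, went from −0.59, 1.34 and 2.02 to 7.65, 7.72 and 8.71 (fold change 7.10, standard error 0.43). *Msr1*, a scavenger receptor for modified lipoproteins, went from 0.24, 1.11 and 0.71 to 8.0, 7.62 and 7.87 (fold change 7.14, standard error 0.42). For both genes, every GAL1+ library lay far above every GAL1- library. Next came *Cd36*, a fatty acid and lipoprotein receptor (6.39), *Cxcl13*, a chemokine that attracts B cells (6.27), *Adgre1*, which encodes the macrophage antigen F4/80 (6.27), and *C3ar1*, the receptor for complement C3a (6.14). *Ptgs1*, the constitutive cyclooxygenase, rose by 6.00, and the C1q chains *C1qc* and *C1qb* by 6.15 and 5.99. Each had an adjusted p of at most 5.33e-05 and was higher in 3 of 3 tumors.

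Most marker genes of microglia and of macrophages and monocytes were higher in GAL1+ cells. In the microglia list, all 11 measured genes were called higher, with a median of 4.38. *P2ry12*, the purinergic receptor of homeostatic microglia, was at 1.17, 2.35 and 1.22 in GAL1- and at 5.68, 6.01 and 6.18 in GAL1+ cells (fold change 4.38, standard error 0.37, adjusted p = 3.99e-05). *Tmem119*, another microglial surface protein, rose from 1.52, 2.78 and 1.72 to 6.15, 6.81 and 6.61 (fold change 4.52, standard error 0.44, adjusted p = 5.38e-05). *Fcrls*, an Fc receptor-like gene of microglia, had the largest difference, 6.12, with 1 of its GAL1- libraries at or under the floor. *Sall1*, a transcription factor of microglia, had the smallest at 0.66 (adjusted p = 0.016; 0.0848 with T3 left out). In the macrophage and monocyte list, 14 of 15 measured genes were higher, with a median of 5.14, and 1 was lower. The member that fell was *Vcan*, the proteoglycan versican, which progenitors of oligodendrocytes also make (fold change −1.94, standard error 0.20, adjusted p = 6.17e-05). *Fn1*, fibronectin, had the most reads and rose from 7.15, 8.08 and 7.45 to 11.86, 12.16 and 12.09 (fold change 4.48, standard error 0.36, adjusted p = 3.93e-05).

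Other leukocytes left a weaker or mixed trace. In the neutrophil list, 5 of 10 measured genes were higher and 0 lower, with a median of 1.05; 3 were higher without the block, or when only genes with a log2 CPM above 3 in 3 libraries were kept. *Csf3r*, the receptor of granulocyte colony-stimulating factor, which microglia also express, led with a fold change of 3.84 (standard error 0.39, adjusted p = 6.22e-05). *S100a8*, the calgranulin that neutrophils carry in bulk, was at 1.36, 0.72 and 2.80 in GAL1- and at 1.83, 0.96 and 2.0 in GAL1+ cells, and the groups overlapped (fold change −0.03, adjusted p = 0.933; 0.35 with T5 left out). Among dendritic cell genes, 6 of 9 measured were higher and 1 lower, with a median of 0.95; with T5 left out 1 was higher, and with T3 left out 3. *Itgax*, the integrin CD11c, rose by 4.60, while *Fscn1*, the actin bundler fascin, which tumor cells also make, fell by 1.57 on the log2 scale. T and NK cell genes had 3 of 13 measured members higher, 1 lower and a median of −0.12, which is 0.35 with T4 left out, −0.60 with T3 left out and 2.06 when only genes with a log2 CPM above 3 in 3 libraries are kept. Leaving out T3 or T5 left 1 member higher. *Cd3e*, a chain of the T cell receptor complex, was at 0.39, 2.40 and 2.35 in GAL1- and at 2.05, 1.18 and 2.61 in GAL1+ cells, with no order between the groups (fold change 0.23, adjusted p = 0.666; −0.49 with T3 left out). *Klrb1c*, which encodes the natural killer receptor NK1.1, rose by 2.89 (standard error 0.31, adjusted p = 7.62e-05). Of 8 B cell genes, 3 were measured and 2 called higher; *Blnk*, a signaling adaptor of B cells that is also made in macrophages, rose by 5.23 and the immunoglobulin heavy chain gene *Ighm* by 3.35. In the mast cell list the only gene measured was *Kit*, the stem cell factor receptor, which was lower by −0.77 (adjusted p = 0.0224; 0.128 with T5 left out and 0.085 without the block).

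Most vascular genes were higher in GAL1+ cells as well. Of 16 endothelial genes, 14 were called higher and 0 lower, with a median of 2.65, and they took 0.0121%, 0.0157% and 0.0102% of reads in GAL1- and 0.0529%, 0.0534% and 0.0345% in GAL1+ cells. *Pecam1*, which encodes the junction protein CD31 of endothelium, platelets and some leukocytes, was at 2.42, 2.74 and 2.08 in GAL1- and at 5.54, 5.49 and 6.41 in GAL1+ cells (fold change 3.40, standard error 0.33, adjusted p = 5.08e-05). *Slco1a4*, a transporter of the blood-brain barrier, had the largest fold change, 3.74 (standard error 0.23), and *Flt1*, a receptor for VEGF, the most reads (fold change 2.24, standard error 0.29). In the mural list, 9 of 12 genes were higher and 1 lower, with a median of 1.68. The summed share of reads of this list was nonetheless lower in GAL1+ cells. It was 0.124%, 0.107% and 0.108% in GAL1- and 0.0692%, 0.0903% and 0.0412% in GAL1+ cells, and *Cspg4* had the most reads. *Pdgfrb*, the receptor that marks pericytes, rose from 2.65, 3.45 and 1.76 to 5.38, 5.68 and 4.30 (fold change 2.50, standard error 0.27, adjusted p = 7.31e-05). *Anpep*, the aminopeptidase CD13 of pericytes and myeloid cells, had the largest difference, 4.38, and the gene that fell, *Cspg4*, encodes the proteoglycan NG2 that pericytes share with oligodendrocyte progenitors (−1.73, adjusted p = 0.00652; −1.13 with T5 left out, and an adjusted p of 0.0609 with T3 left out). In the fibroblast list, 5 of 8 measured genes were higher and 1, *Pdgfra*, was lower; the median of 1.68 was 0.95 with T3 left out, and 3 genes were higher without T3, without T5 or without the block. *Col1a1*, the main chain of type I collagen, was at 4.15, 5.78 and 4.06 in GAL1- and at 7.30, 6.69 and 5.40 in GAL1+ cells. Those ranges overlap, and its fold change of 1.81 (adjusted p = 0.00258) was 1.13 with T3 left out. The fibroblast list, in which *Pdgfra* had the most reads, took 0.219%, 0.186% and 0.173% of reads in GAL1- cells. In GAL1+ cells it took 0.132%, 0.103% and 0.059%.

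**Figure D2:**
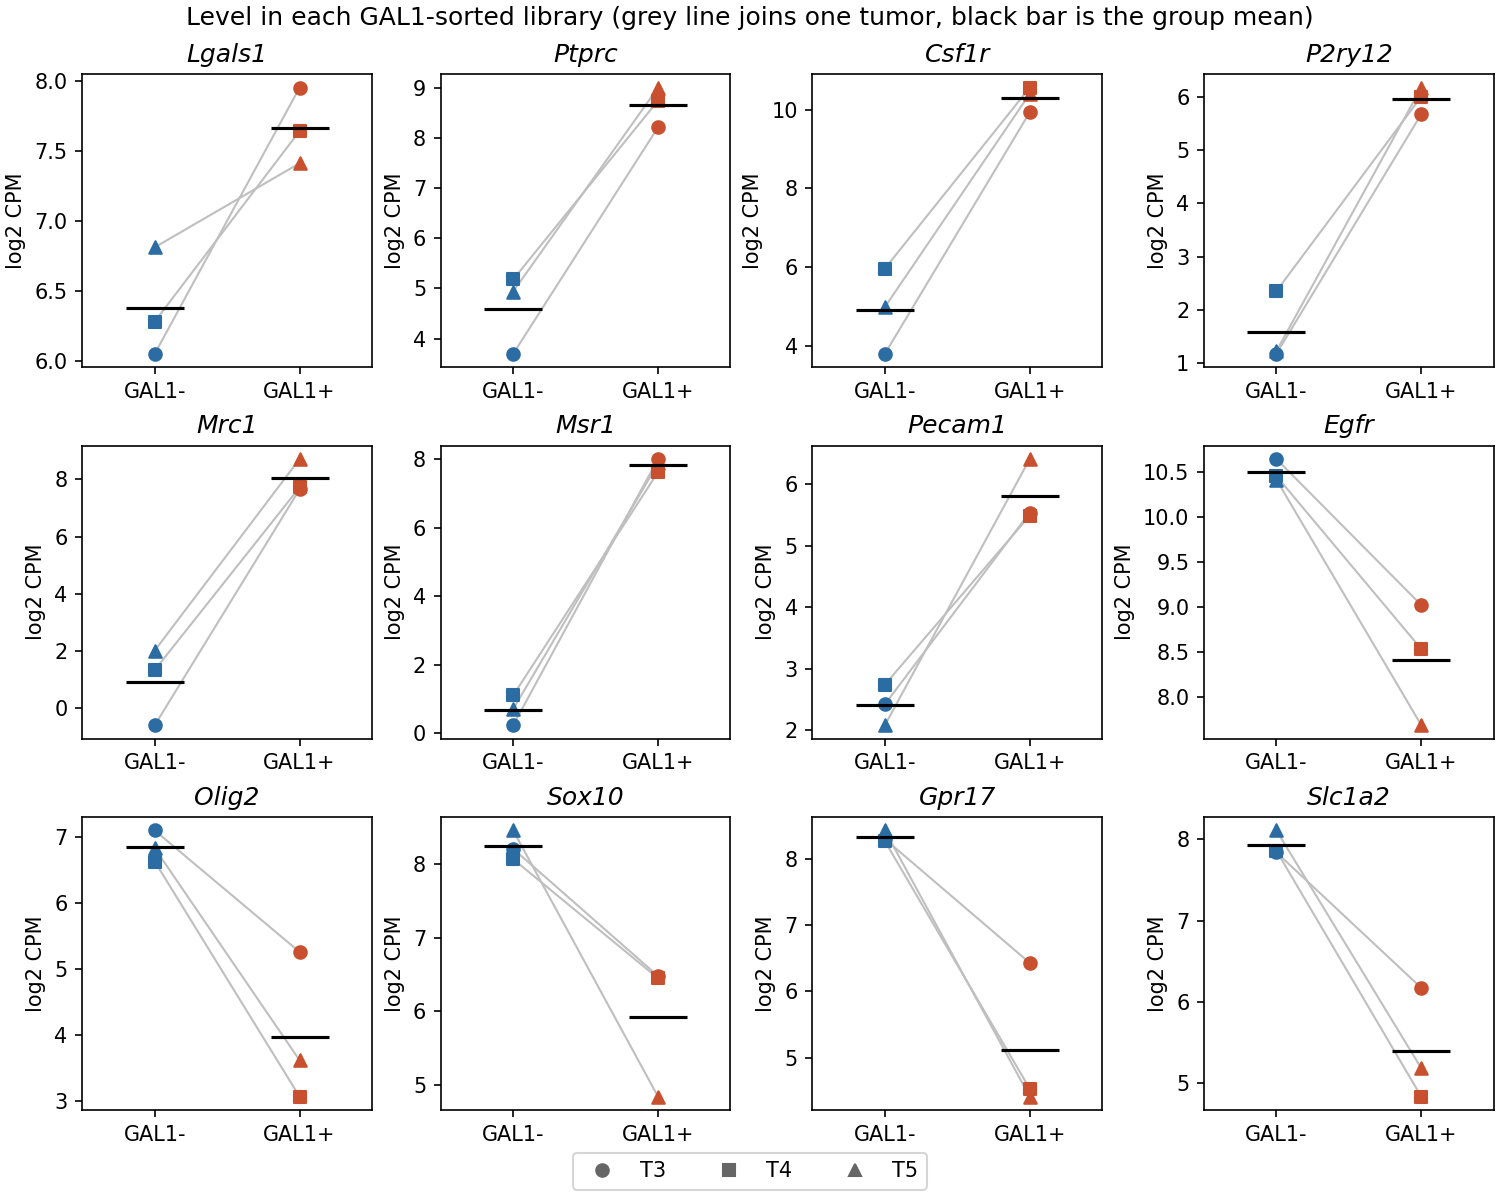
Log2 CPM (vertical axis) of 12 genes in each GAL1- and GAL1+ library, with a symbol for each tumor, a grey line joining the libraries of a tumor and a black bar at the group mean. *Lgals1*, *Ptprc*, *Csf1r*, *P2ry12*, *Mrc1*, *Msr1* and *Pecam1* are higher in all 3 GAL1+ libraries, and *Egfr*, *Olig2*, *Sox10*, *Gpr17* and *Slc1a2* are lower in all 3.

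Chemokine genes followed the leukocyte genes. Of 26 chemokine ligand genes measured, 22 were higher and 2 lower, with a median of 3.65. *Cxcl16*, a membrane-bound chemokine of macrophages, had the most reads and was at 2.79, 4.63 and 4.42 in GAL1- and at 8.36, 8.75 and 9.13 in GAL1+ cells (fold change 4.80, standard error 0.44, adjusted p = 4.77e-05). *Ccl8*, a ligand that attracts monocytes, had the largest fold change of any gene, 7.99 (standard error 0.55, adjusted p = 3.93e-05), with levels of −2.99, −1.88 and −2.46 in GAL1- and of 5.21, 4.88 and 6.54 in GAL1+ cells. Its GAL1- levels lie near the floor, with the T3 library at it, so the size of this fold depends on very few reads. The ligands that fell were *Cx3cl1*, fractalkine, made in brain by neurons (−1.55, standard error 0.37, adjusted p = 0.00519), and *Ccl25* (−1.12, standard error 0.20, adjusted p = 0.00123). *Cx3cr1*, the fractalkine receptor of microglia, moved the other way from its ligand, from 1.89, 4.12 and 2.60 to 8.47, 8.92 and 7.55 (fold change 5.44, standard error 0.66, adjusted p = 0.000133). In all, 12 of 13 chemokine receptor genes measured were higher and 0 lower, with a median of 2.41; this was 1.13 with a pseudocount of 1 CPM, and 4.18 with 7 higher when only genes with a log2 CPM above 3 in 3 libraries were kept. The study named 12 chemotaxis genes from a comparison of GAL1+ with PDGFRA+ cells in these libraries, so their direction is not independent evidence; all 12 were higher here, with a median of 3.84 (5.02 in T3, 3.86 in T4 and 3.60 in T5). *Cxcl2*, a neutrophil attractant, had the most reads of these, at 3.62, 3.64 and 4.37 in GAL1- and 7.71, 7.01 and 7.79 in GAL1+ cells. The part that leukocyte RNA plays in these differences was not tested.

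Inflammatory and antigen presentation genes were raised too. In the cytokine and NF-kB list, 17 of 20 genes were higher and 1 lower, with a median of 2.80. *Il1b*, the gene of interleukin-1 beta, rose from 4.36, 5.82 and 5.32 to 9.43, 9.95 and 9.77 (fold change 4.55, standard error 0.44, adjusted p = 5.08e-05), and *Il1a* by 5.85 (standard error 0.62). The receptor accessory chain *Il1rap* fell (−1.49, adjusted p = 0.00643), a call lost with T3 left out (adjusted p = 0.0743) or without the block (0.0549). All 10 genes of MHC class II presentation were higher, with a median of 3.46. They took 0.0544%, 0.118% and 0.147% of reads in GAL1- and 0.645%, 1.3% and 1.99% in GAL1+ cells. *Cd74*, the invariant chain, had the most reads of the list and rose from 7.23, 8.93 and 8.90 to 11.74, 12.86 and 13.48 (fold change 4.34, standard error 0.46, adjusted p = 7.26e-05). MHC class I genes moved less, with 10 of 13 higher and a median of 0.71; after quantile normalization the median was 0.27 with 5 higher, and *H2-D1*, the class I heavy chain with the most reads, turned from 0.77 to −0.14. *Tapbp*, the chaperone tapasin, had the largest class I difference at 2.20 (standard error 0.18). Of 21 interferon-stimulated genes, 14 were higher and 0 lower, with a median of 1.51, led by the antiviral synthetase gene *Oas1a* (3.30, standard error 0.36).

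Genes of phagocyte functions had some of the largest list medians. All 5 Fc receptor genes were higher, within a narrow range from 5.79 for *Fcer1g*, the signaling chain, to 6.09 for *Fcgr4*, a receptor for IgG. *Fcgr3*, another IgG receptor, was at 2.08, 2.95 and 3.30 in GAL1- and at 8.41, 8.28 and 9.06 in GAL1+ cells. In the complement list, 17 of 18 genes were higher, with a median of 4.57. The exception, *C4b*, had the most reads of that list and levels of 9.24, 9.50 and 9.95 in GAL1- and 8.51, 9.79 and 9.61 in GAL1+ cells, which overlap (fold change −0.26, adjusted p = 0.297; −0.53 and 0.0352 with T4 left out, and −0.75 and 0.0071 after quantile normalization). All 25 lysosome genes were higher, from 1.42 for the tetraspanin *Cd63* to 5.66 for *Ctss*, with a median of 3.53, and they took 2.42%, 2.69% and 2.89% of reads in GAL1+ against 0.197%, 0.26% and 0.242% in GAL1- cells. Lipid-associated phagocyte genes had 10 of 13 members higher and a median of 4.05. *Apoe*, the lipoprotein that carries lipid between glia and phagocytes, rose from 7.25, 9.41 and 8.72 to 13.45, 13.78 and 13.70 (fold change 5.18, standard error 0.47, adjusted p = 4.63e-05). Of 15 checkpoint genes, 10 were higher and 2 lower, with a median of 2.93. *Sirpa*, the phagocyte receptor for the signal given by CD47, rose by 3.26 (standard error 0.38), *Cd47* by 1.04 (standard error 0.17) and the costimulator *Cd86* by 4.34 (standard error 0.39). *Cd276*, the checkpoint ligand B7-H3, fell (−1.49, adjusted p = 0.00352; 0.069 without the block), as did *Tigit*, a receptor of T and NK cells (−1.17, adjusted p = 0.0227), whose call was lost with T4 or T5 left out (adjusted p = 0.165 and 0.204) or without the block (0.0857).

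Of the other galectin genes measured, *Lgals3*, *Lgals8* and *Lgals9* were called higher, where 28.9% of all genes were. *Lgals4* and *Lgals7* were not called (fold changes −0.11 and −0.17, adjusted p = 0.809 and 0.877), and *Lgals7* had 1 library of each group at or under the floor. *Lgals3*, the galectin of activated macrophages, rose from 1.09, 2.65 and 4.56 to 7.27, 7.02 and 7.66, with a fold change of 4.55 (standard error 0.48, adjusted p = 6.73e-05) that exceeds that of *Lgals1*. *Lgals3bp*, a secreted glycoprotein that binds galectins and is not itself a galectin, rose by 3.48 (standard error 0.26), and *Lgals8* rose by 0.76 (standard error 0.13).

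Genes of oligodendrocyte progenitors (OPCs), a cell that many GBM cells resemble, fell together. All 16 OPC genes were lower in GAL1+ cells, with a median of −2.89 and a range from −3.70 to −1.73, and the groups did not overlap for any of them. Their share of reads was 1.15%, 0.958% and 1.09% in GAL1- and 0.296%, 0.128% and 0.0905% in GAL1+ cells. *Olig2*, a transcription factor of the oligodendrocyte lineage, was at 7.10, 6.63 and 6.83 in GAL1- and at 5.26, 3.07 and 3.62 in GAL1+ cells (fold change −2.87, standard error 0.31, adjusted p = 7.42e-05). *Sox10*, another factor of that lineage, went from 8.21, 8.07 and 8.46 to 6.48, 6.45 and 4.84 (fold change −2.33, standard error 0.38, adjusted p = 0.000609). *Ptprz1*, a receptor phosphatase of glial progenitors, had the most reads of the list and a fold change of −2.48 (standard error 0.32). For *Olig2* and *Sox10* the GAL1- libraries were close together and the GAL1+ libraries were not. The fall was smallest in T3, whose median over the list was −1.73, against −3.51 in T4 and −3.40 in T5. The study also named oligodendrocyte differentiation genes from these libraries, 9 of which are reported here; all 9 were lower, with a median of −2.74, which is again no independent evidence of direction.

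The 10 largest falls were taken among called genes with a mean log2 CPM of at least 4. *Gpr17*, a receptor of committed OPCs, went from 8.30, 8.27 and 8.43 to 6.43, 4.53 and 4.41 (fold change −3.21, standard error 0.37, adjusted p = 0.000109). *Myt1*, a zinc finger factor of neural progenitors, went from 8.02, 8.11 and 8.62 to 6.28, 4.23 and 4.85 (fold change −3.13, standard error 0.39, adjusted p = 0.000151). In both, the GAL1+ library of T3 lay nearest to the GAL1- libraries. The others were *Nell2*, a secreted neural glycoprotein (−3.18), *Nsg2*, a vesicle protein of neurons (−3.10), *Dab1*, the adaptor of reelin signaling (−3.09), *Jakmip2* (−3.08), *Gpm6a*, a membrane glycoprotein of neurites (−3.05), *Elfn2* (−3.04), *Dscaml1*, a neural adhesion protein (−3.03), and *Nrxn2*, a neurexin (−3.02). These 10 falls span −3.21 to −3.02, all smaller in size than each of the 10 largest rises taken by the same rule.

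Other neural lists were mixed, with many members lower and others not called. Of 13 astrocyte genes measured, 7 were lower and 1 higher, with a median of −1.35. *Slc1a2*, the main glutamate transporter of astrocytes, went from 7.84, 7.86 and 8.11 to 6.17, 4.83 and 5.18 (fold change −2.54, standard error 0.35, adjusted p = 0.00024). The gene that rose, *Glul*, encodes glutamine synthetase, which macrophages can also make (2.13, standard error 0.25, adjusted p = 0.00012). *Aqp4*, the water channel of astrocyte endfeet, was at 2.26, 1.84 and 1.82 in GAL1- and at 2.49, 0.84 and 0.79 in GAL1+ cells, and was not called (fold change −0.60, adjusted p = 0.158). Of 12 neuron genes measured, 7 were lower and 0 higher, with a median of −1.74. *Dcx*, the doublecortin of young neurons, fell by 2.84 and *Map2*, a dendritic microtubule protein, by 2.02 on the log2 scale, while *Rbfox3*, the marker NeuN of mature neurons, was low throughout, with levels of −1.63, −0.54 and −0.99 in GAL1- and −0.51, −3.53 and 1.26 in GAL1+ cells. *Rbfox3* was not called, and its fold change ran from −0.94 to 1.69 as each tumor was left out. Neural progenitor genes had 10 of 14 measured members lower and 1 higher, with a median of −1.51, or −0.90 with T5 left out. *Sox3* fell most (−2.86, standard error 0.42), and *Lfng*, a glycosyltransferase that modifies Notch, rose by 2.17 (standard error 0.31). Mature oligodendrocyte genes had 9 of 12 members lower and 1 higher, with a median of −1.26. The gene that rose, *Aspa* (fold change 2.32, adjusted p = 0.0313), had 2 GAL1- libraries at or under the floor. Its call was lost with T3 or T5 left out (adjusted p = 0.242 and 0.077). It was also lost without the block (0.203) and after quantile normalization (0.118). *Mbp*, the myelin basic protein, was at 6.72, 7.49 and 7.54 in GAL1- and at 6.35, 6.30 and 6.45 in GAL1+ cells (fold change −0.88, adjusted p = 0.00326; 0.056 with T5 left out). Of 4 ependymal genes measured, 1 was higher and 1 lower, and the median of −0.72 was 0.09 with T4 left out. With any tumor left out, or without the block, 0 were higher, and 2 were lower with T5 left out.

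Many genes of neural communication were lower. Of 35 genes for synaptic adhesion, vesicles and scaffolds, 33 were lower and 0 higher, with a median of −2.35, and in all 35 the groups did not overlap. *Ptprs*, a synaptic receptor phosphatase, had the most reads of the list and fell from 9.25, 9.48 and 9.38 to 8.16, 8.39 and 7.39 (fold change −1.39, standard error 0.28, adjusted p = 0.00235). Of 31 ion channel genes, 28 were lower and 1 higher, with a median of −2.50. *Cacng4*, an auxiliary subunit of AMPA receptors and calcium channels, had the most reads and went from 8.33, 8.12 and 8.41 to 6.50, 4.55 and 4.80 (fold change −3.00, standard error 0.35, adjusted p = 0.000105). *Scn1a*, a sodium channel gene, was among those that fell (−3.01, standard error 0.28). Of 28 glutamate and GABA receptor genes measured, 19 were lower and 0 higher, with a median of −1.98. *Gria2*, the AMPA receptor subunit that sets calcium permeability, went from 8.78, 8.64 and 8.51 to 7.0, 5.83 and 5.12 (fold change −2.66, standard error 0.27, adjusted p = 5.72e-05). In all 3 lists the fall was smallest in T3.

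**Figure D3:**
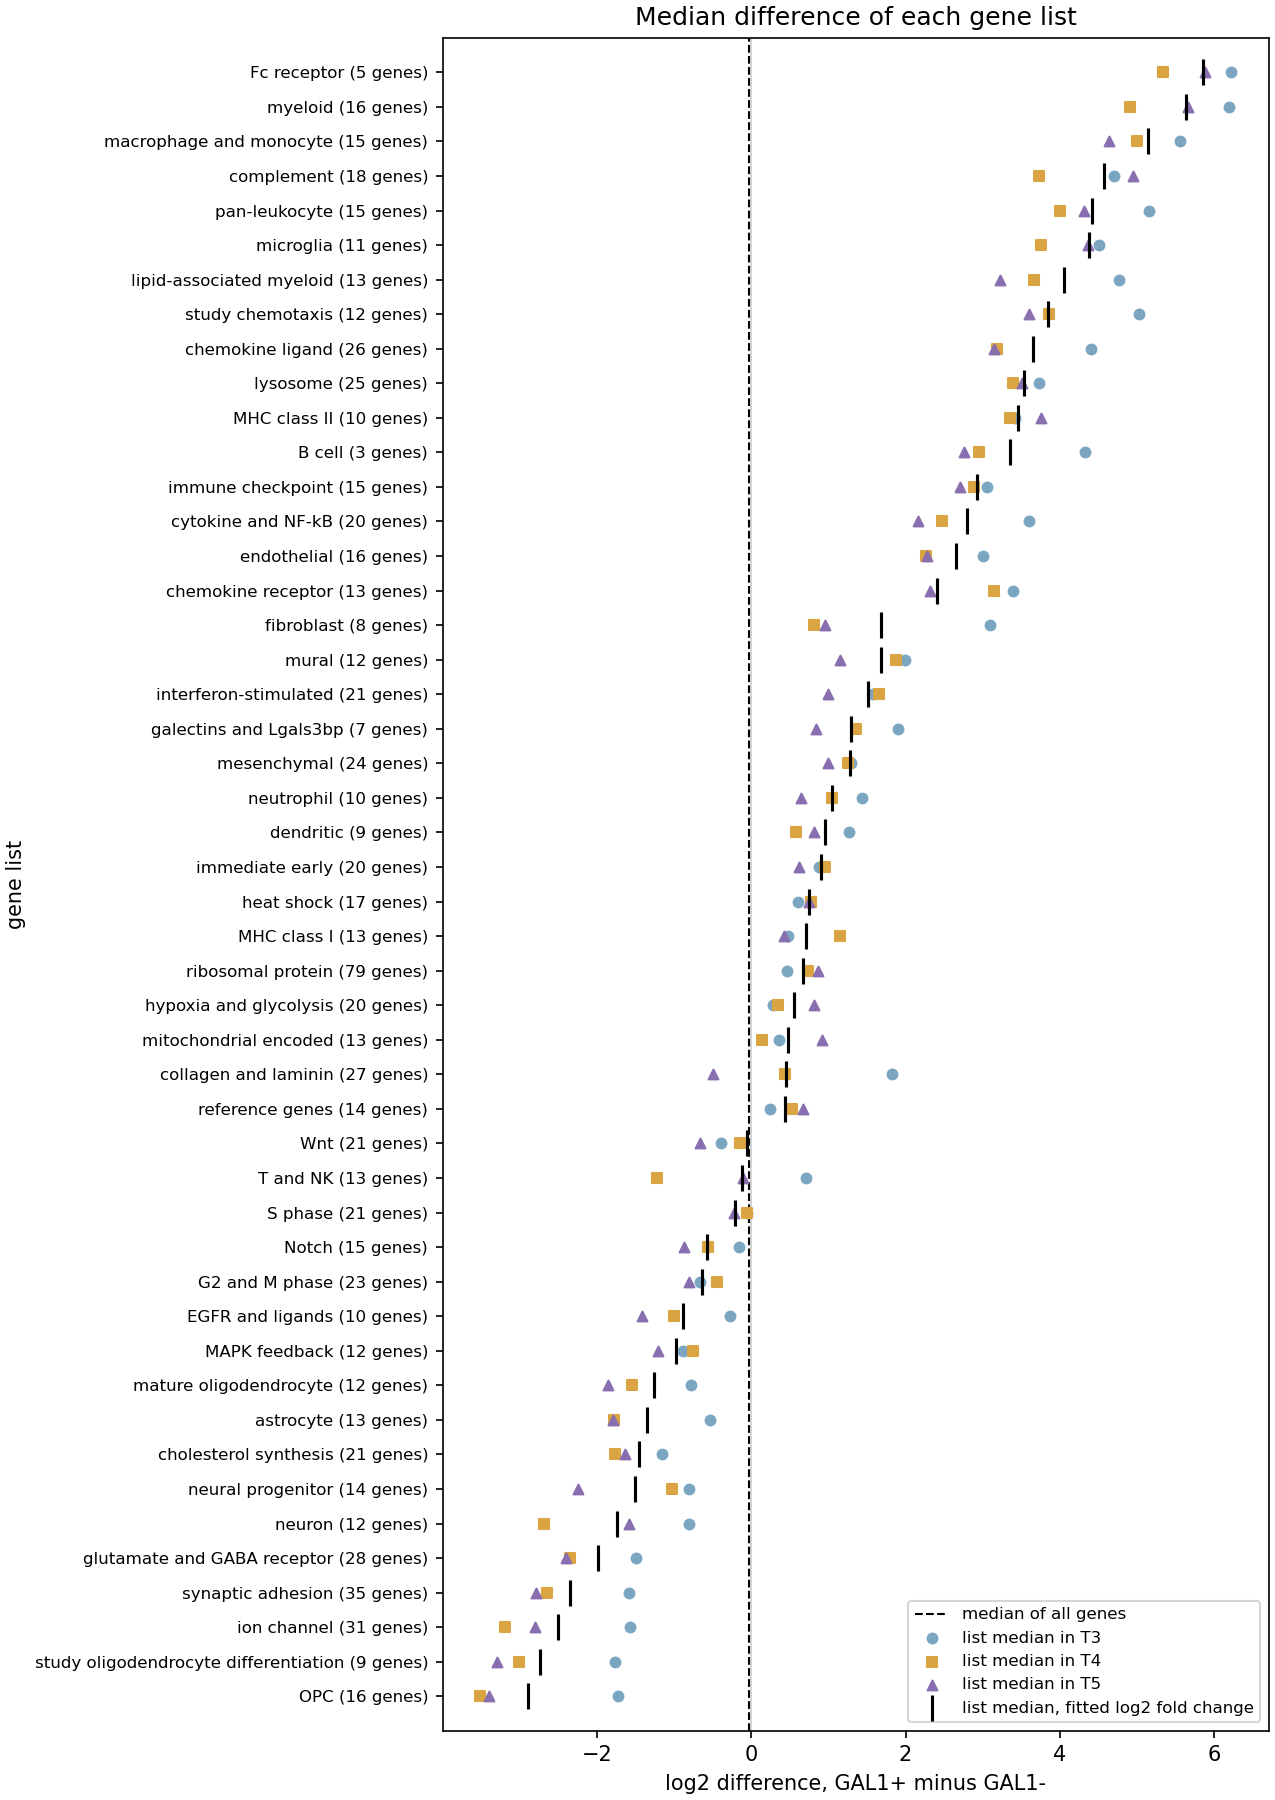
Median log2 difference of GAL1+ minus GAL1- cells (horizontal axis) for each gene list (vertical axis, with the number of genes measured), as fitted over the 3 tumors (black bar) and within each tumor (symbols). The dashed line is the median of all genes, −0.03; the Fc receptor list is highest at 5.86 and the OPC list lowest at −2.89, with T3 nearest to the line in the OPC, ion channel and synaptic lists.

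Some genes of the EGFR pathway fell beside *Egfr*. In the list of EGFR family receptors and ligands, 3 of 10 measured genes, *Egfr* among them, were lower and 0 higher, where 29.3% of all genes were lower. The median of −0.88 was −0.56 with T4 left out. *Erbb4*, a receptor of the family, went from 6.40, 6.36 and 6.62 to 4.61, 2.60 and 3.76 (fold change −2.81, standard error 0.32, adjusted p = 0.000101). *Tgfa*, a ligand of EGFR, went from 8.01, 7.74 and 7.87 to 6.60, 6.23 and 5.15 (fold change −1.88, standard error 0.26, adjusted p = 0.000246). The study's methods list a Cre lentivirus that also carries TGFa, beside a virus with Cre alone. Which of them started these tumors is not stated, and whether viral reads count toward *Tgfa* was not tested. Of 12 genes induced by ERK activity, 9 were lower and 1 higher, with a median of −0.97. *Etv4*, an ETS factor downstream of ERK, fell from 6.55, 6.32 and 6.19 to 5.05, 3.91 and 3.54 (fold change −2.19, standard error 0.28, adjusted p = 0.000182). The gene that rose, *Dusp5*, encodes a nuclear phosphatase of ERK (1.90, standard error 0.24, adjusted p = 0.000145). Immediate early genes were split, with 13 of 20 higher and 5 lower and a median of 0.90. *Klf2*, a factor of endothelium and leukocytes, rose by 2.57 (standard error 0.33). The growth factor responsive genes *Egr1* and *Myc* fell, *Egr1* from 9.82, 9.60 and 9.58 to 8.61, 7.91 and 7.54 (fold change −1.65, standard error 0.17, adjusted p = 5.74e-05) and *Myc* from 6.89, 6.40 and 6.01 to 5.72, 5.32 and 5.01 (fold change −1.08, standard error 0.11, adjusted p = 5.37e-05). *Fos* and *Jun*, the AP-1 partners, fell by 0.70 and 0.74 on the log2 scale, and by more after quantile normalization (−1.22 and −1.28).

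Cell division genes showed smaller differences. Of 23 mitosis genes, 17 were lower and 0 higher, with a median of −0.64; 9 were lower with T5 left out and 2 without the block. *Cdc20*, an activator of the anaphase-promoting complex, was at 5.67, 4.84 and 4.67 in GAL1- and at 4.52, 3.68 and 3.29 in GAL1+ cells (fold change −1.23, standard error 0.23, adjusted p = 0.00139; 0.0847 without the block). The proliferation marker *Mki67*, with the most reads of the list, was at 9.93, 9.27 and 9.05 in GAL1- and at 9.60, 9.08 and 8.96 in GAL1+ cells. Its groups overlapped and it was not called (fold change −0.20, adjusted p = 0.204), except after quantile normalization (−0.70, adjusted p = 0.000689). DNA replication genes had 5 of 21 members higher and 4 lower, with a median of −0.21; with T5 left out these counts were 0 and 1, with T4 left out 3 and 1, and without the block 1 and 1, and 1 was higher with T3 left out.

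RNA of most sterol synthesis genes fell and that of most translation genes rose. The activity of these pathways was not measured. Of 21 cholesterol synthesis genes, 19 were lower and 1 higher, with a median of −1.45. *Hmgcs1*, an early enzyme of the pathway, had the most reads and went from 8.47, 8.20 and 8.22 to 7.04, 5.93 and 6.11 (fold change −1.94, standard error 0.23, adjusted p = 0.000129). *Lss*, lanosterol synthase, fell most (−2.26, standard error 0.27), and *Ebp*, a sterol isomerase, rose by 1.02 (standard error 0.15). Of 79 ribosomal protein genes, 74 were higher and 0 lower, with a median of 0.67; this was 0.40 with 39 higher after quantile normalization, which turned *Rpsa*, the member with the most reads, from 0.36 to −0.15, and 37 were higher with T5 left out. *Fau*, a ubiquitin-like ribosomal fusion protein, had the largest difference, from 7.35, 7.20 and 7.38 to 8.42, 8.70 and 8.86 (fold change 1.35, standard error 0.19, adjusted p = 0.000322). Reads that match several genes were counted as fractions, so that values of ribosomal protein genes, which have many pseudogenes, are uncertain. Of 13 genes of the mitochondrial genome, 4 were higher and 0 lower, with a median of 0.48, or 0.07 with 0 higher after quantile normalization and 0.23 with 0 higher with T5 left out; 2 were higher with T3 or T4 left out or without the block. *COX1*, the member with the most reads, was not called and turned from 0.45 to −0.72 after quantile normalization. In the heat shock and unfolded protein list, 13 of 17 genes were higher and 0 lower, with a median of 0.75 (0.43 after quantile normalization), and 5 were higher without the block. *Herpud1*, a gene of the endoplasmic reticulum stress response, rose by 1.69 (standard error 0.24), while *Hsp90ab1*, a chaperone with the most reads of the list, had 0.35 and turned to −0.74 after quantile normalization. Reference genes were no fixed point either: 8 of 14 were higher and 1 lower, with a median of 0.44 that became 0.04 with 5 higher after quantile normalization, and *Actb*, actin, had 1.14 and −0.04 in these scalings.

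These differences were also compared with those of the PDGFRA sort. The difference between GAL1+ and GAL1- cells was set against that between PDGFRA+ and PDGFRA- cells of the same tumors in a test of the difference itself. It called 9290 genes (51.1%), with 4766 (26.2%) positive and 4524 (24.9%) negative, and 5757 with T5 left out. A call can come from either sort, or from opposite signs in both. All 15 pan-leukocyte genes and all 16 myeloid genes were positive, with median differences between the sorts of 4.82 and 5.59. In the PDGFRA sort alone the medians of these lists were −0.28 and 0.02, with different directions by tumor. The pan-leukocyte genes took 0.144%, 0.0855% and 0.343% of reads in the PDGFRA- libraries of T3, T4 and T5 and 0.0894%, 0.202% and 0.184% in the PDGFRA+ libraries, so their share was higher in PDGFRA+ cells in T4 and lower in T3 and T5. Every PDGFRA library lay above the GAL1- libraries in this share and below the GAL1+ libraries, so leukocyte RNA was present in both PDGFRA populations. All 16 OPC genes were negative, with a median of −3.35, against 0.79 in the PDGFRA sort alone, whose opposite sign adds to the difference. For *Ptprc* the difference between the sorts was 4.59 (adjusted p = 0.000296) and for *Lgals1* 1.55 (adjusted p = 0.00303). Of 16 endothelial genes, 13 were positive, and of 12 mature oligodendrocyte genes, 2 were positive and 3 negative, so that most of the latter showed no called difference between the sorts. *Sall1* was the microglia gene with no call (0.20, adjusted p = 0.558).

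Promoter sequences of genes that rose together are shown because *Spi1* was among them: PU.1 belongs to the ETS family, whose members bind purine-rich DNA around a GGAA core. The letters GAGGAAGT were searched on both strands (ACTTCCTC on the other) in RefSeq windows of build GRCm38.p6 that run from 250 bases before to 50 after each gene's start. Of the 32851 windows in the table, 1052 (3.2%) hold these letters, and of its 27025 genes 997 (3.69%). Among the genes named by rule, 144 had a window and 6 (4.17%) held the letters, a share near that of all genes. These 6 were *Fcgr4*, *Ptgs1*, *S100a8*, *Ctss*, *C1qc* and *Dusp5*. Of the 10 genes with the largest rises by the same rule, 7 had a window and 2 held the letters, and of the 10 with the largest falls, 5 had a window and 0 did. A match is a description of the sequence, and no binding was measured. The windows of *Ctss* (chr3:95526536-95526835, plus strand), *C1qc* (chr4:136892865-136893164, minus strand), *Ptgs1* (chr2:36230176-36230475, plus strand) and *Fcgr4* (chr1:171018676-171018975, plus strand), whose fold changes were 5.66, 6.15, 6.00 and 6.09, read as follows, 5′ to 3′ on the strand of the gene, with the searched letters in capitals.
*Ctss*: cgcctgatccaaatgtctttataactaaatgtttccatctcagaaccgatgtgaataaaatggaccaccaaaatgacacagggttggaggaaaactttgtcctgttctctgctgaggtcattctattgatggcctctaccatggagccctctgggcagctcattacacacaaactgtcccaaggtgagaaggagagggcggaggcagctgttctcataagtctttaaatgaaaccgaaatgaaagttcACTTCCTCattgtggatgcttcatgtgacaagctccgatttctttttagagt
*C1qc*: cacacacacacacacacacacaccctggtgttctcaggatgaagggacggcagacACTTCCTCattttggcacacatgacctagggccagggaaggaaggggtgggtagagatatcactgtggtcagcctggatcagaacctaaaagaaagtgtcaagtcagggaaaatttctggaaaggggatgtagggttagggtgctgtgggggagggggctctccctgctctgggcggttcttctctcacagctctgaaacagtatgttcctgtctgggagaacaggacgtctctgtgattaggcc
*Ptgs1*: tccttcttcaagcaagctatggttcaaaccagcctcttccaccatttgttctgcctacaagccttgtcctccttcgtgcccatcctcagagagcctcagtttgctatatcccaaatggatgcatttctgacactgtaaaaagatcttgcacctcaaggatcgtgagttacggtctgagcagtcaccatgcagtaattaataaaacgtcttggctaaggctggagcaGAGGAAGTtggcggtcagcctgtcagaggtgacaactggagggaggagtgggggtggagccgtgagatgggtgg
*Fcgr4*: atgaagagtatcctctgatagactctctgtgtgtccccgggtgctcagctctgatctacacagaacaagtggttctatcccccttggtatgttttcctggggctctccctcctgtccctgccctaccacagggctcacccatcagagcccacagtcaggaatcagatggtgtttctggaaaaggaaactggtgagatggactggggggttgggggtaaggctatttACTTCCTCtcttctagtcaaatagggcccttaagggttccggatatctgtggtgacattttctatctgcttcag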

How the data were processed

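RNA from EGFR+ cells sorted from 3 tumors was made into libraries from 1 ng of total RNA. According to the submitters' notes and the study's methods, the authors used fastp, STAR (mm39), featureCounts with multi-mapping reads as fractions, a filter at a CPM above 1 in 3 samples, TMM, voom and limma; versions are not given in the sources used here. The deposited table gives log2 CPM of 18180 genes. Reads were recovered by setting each library's lowest value to a count of 0 with an offset of 0.5; 42.9% to 59.2% of values in the GAL1 libraries came out whole (within 0.01), since some reads were counted as fractions.

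All 12 libraries were fitted with limma 3.58.1 in R 4.3.3 (lmFit, eBayes with a trend), with population and tumor as terms, as in the study. The tumor numbers come from the labels. Deviations of GAL1+ and GAL1- libraries from their group means correlated across genes at 0.388 to 0.469 within a tumor. Between tumors the correlations were −0.294 to −0.139. The deviations of a group cancel out for each gene, so positive values within tumors bring negative values between them. The script was tested on simulated data in 5 runs with 200 of 18180 genes changed. On average it recovered 41.1% of 2-fold and 80.5% of 4-fold changes, and 4.99% of its calls were false. Far more genes were called in the real data, so these rates do not carry over directly. A gene that was not called may still differ. Gene lists were described by counts and medians with no test.

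Named genes are the gate and model genes; the 10 largest rises and 10 largest falls among genes that were called, moved alike in 3 of 3 tumors and had a mean log2 CPM of at least 4, predicted genes left out; per list, the called members with the largest and smallest difference, the member with the most reads and called members against the majority; the genes the study names; and defining markers. Members and lists were chosen with earlier results of these data known. Some genes that these rules name are not reported here. Alternatives were other blocks, variance models, weights, pseudocounts, filters, scalings, a fold threshold and leaving out each tumor. Tables and figures were made with Python 3.11.15, pandas 2.3.3 and matplotlib 3.10.9.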

Additional observations from a re-analysis of the deposited data

How the results depend on the processing

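The counts of called, higher and lower genes stayed within 1.5 times under every alternative tried. Without the tumor block, 8392 genes were called (4248 higher and 4144 lower), and *Lgals1* kept its fold change of 1.29 (adjusted p = 0.0022). Leaving out each tumor gave 8071 to 8478 called genes, 4039 to 4236 higher, 3956 to 4242 lower, and a fold change of *Lgals1* from 0.98 to 1.63. For the difference between the GAL1 and PDGFRA sorts, the count was 6692 without the block and 5757 to 8064 with a tumor left out, the lowest without T5. The cause was not tested.

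Direction turned for 9 of the genes named by rule. After quantile normalization *Vim* was at −0.72, *H2-D1* at −0.14, *Rpsa* at −0.15, *COX1* at −0.72, *Hsp90ab1* at −0.74 and *Actb* at −0.04. With a tumor left out, *Vim* ran from −0.01 to 0.18, *S100a8* from −0.28 to 0.35, *Cd3e* from −0.49 to 0.96 and *Rbfox3* from −0.94 to 1.69, and *S100a8* was at 0.01 after centring on the median. Quantile normalization moved the median of all genes to −0.091. Named genes lost their call in 154 combinations of gene and alternative, over 50 genes, and list medians moved beyond their spread between tumors in 28 of those tried. Leaving out a tumor leaves 2 libraries per group. Depth limits genes near 3 reads, such as *Ccl8* in GAL1- cells.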

Other observations

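Notch genes were split by member. Of 15 genes, 5 were higher and 8 lower in GAL1+ cells, with a median of −0.57, and 5 were lower with T5 left out; the median was 0.07 when only genes with a log2 CPM above 3 in 3 libraries were kept. The receptor gene *Notch2* rose from 4.69, 5.49 and 5.37 to 7.41, 7.71 and 8.20 (fold change 2.59, standard error 0.22, adjusted p = 3.93e-05), as did the ligand gene *Jag1* (1.83, standard error 0.28). *Notch1*, the receptor with the most reads, fell (−0.66, adjusted p = 0.0113; 0.0791 with T3 left out), and so did *Dll3*, a ligand that blocks Notch within the cell, from 4.47, 4.13 and 4.07 to 2.86, −0.90 and −0.38 (fold change −3.70, standard error 0.58, adjusted p = 0.000517). Wnt genes were split too, with 4 of 21 higher and 8 lower and a median of −0.05, close to that of all genes; it was 0.03 with weights from recovered reads, −0.40 with T3 and −0.30 with T4 left out, and 5 were lower with T5 left out. The receptor gene *Fzd9* fell by 2.89 on the log2 scale (standard error 0.31), and *Fzd7* rose by 2.74 (standard error 0.30).

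Genes of the mesenchymal glioma state had 15 of 24 measured members higher and 0 lower, with a median of 1.28. After quantile normalization 14 were higher and 2 lower. *Tgfbi*, a matrix protein that macrophages also secrete, led with 4.88 (standard error 0.37), and *Fosl2*, an AP-1 factor, rose by 1.20 (standard error 0.18). *Vim*, the intermediate filament vimentin, was at 10.50, 10.48 and 10.43 in GAL1- and at 10.66, 10.67 and 10.26 in GAL1+ cells. It was not called (fold change 0.06, adjusted p = 0.797), except after quantile normalization (−0.72, adjusted p = 0.0149). With T4 left out its fold change was −0.01. Hypoxia and glycolysis genes had 11 of 20 members higher and 2 lower, with a median of 0.55, which was 0.30 with T5 left out and 0.20 with 7 higher after quantile normalization. *Ndrg1*, a gene induced by hypoxia, rose from 4.66, 4.39 and 4.48 to 6.65, 6.28 and 6.93 (fold change 2.11, standard error 0.24, adjusted p = 0.000103), while *Car9*, a carbonic anhydrase and hypoxia marker, was lower (−0.83, adjusted p = 0.0157; 0.102 without T3, 0.14 without T4 and 0.167 without the block).

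Collagen and laminin genes differed in direction between tumors, where T3 had a median of 1.82, T4 of 0.44 and T5 of −0.49. Fitted to the 3 tumors together, the median was 0.45, with 9 of 27 measured genes higher and 4 lower; it was −0.12 with 4 higher when T3 was left out and 1.01 when T5 was, 7 were lower when T4 was left out, and 3 were higher without the block. *Col6a3*, a chain of type VI collagen, rose from 4.21, 6.46 and 5.52 to 8.03, 8.80 and 8.60 (fold change 3.08, standard error 0.23, adjusted p = 3.93e-05). The cartilage-type chains *Col9a3* and *Col11a2* fell (−2.59, standard error 0.27, and −2.53, standard error 0.34), as did *Col11a1*, with the most reads of the list (−1.93, standard error 0.42). The difference between tumors was not tested, since each tumor gives 1 library per group.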
